A study of Mus musculus with 76 samples.

Results

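The Ifitm genes encode the interferon-induced transmembrane proteins, and they were taken as every row of the deposited expression table whose symbol begins with Ifitm. The table listed 6 such genes among 15192, namely Ifitm1, Ifitm2, Ifitm3, Ifitm5, Ifitm6 and Ifitm10; a further mouse member, Ifitm7, is not analysed here. RNA was measured in 76 single mouse iHPCs, sorted cells that the labels derive from pluripotent stem cells in which Runx1, Hoxa9 and Hoxa10 were induced together. All 76 cells formed 1 group with the same 3 introduced factors, and no control group, culture, clone or time was given in the labels, so all cells count as 1 sample here and carry neither p-values nor standard errors. Values are TPM, each transcript's part of 1000000 after scaling for transcript length. Comparisons of level between genes rest on this scaling and on how reads were assigned to genes, neither of which was tested here. Library depth is unknown.

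IFITM proteins are small membrane proteins that hinder the entry of enveloped viruses by acting on the membranes through which the virus fuses with the cell. Several of them are induced by interferon in most tissues, whereas stem and progenitor cells are known to carry some of them without infection. In the mouse embryo, Ifitm3 (fragilis) and Ifitm1 are also known from primordial germ cells, and Ifitm5 (Bril) is known from bone-forming cells.

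In RefSeq's annotation of GRCm38.p6, Ifitm1 lies on chromosome 7 from 140967429 to 140969827, Ifitm2 from 140954837 to 140959686 and Ifitm3 from 141009590 to 141010744. Ifitm5 (140948958 to 140950243) and Ifitm6 (141015812 to 141016892) lie in the same cluster, and Ifitm10 lies further along the chromosome (142325835 to 142373779). Sequences before 1 annotated start of each of the 3 abundant genes are shown because they differ in an interferon motif, the core of the interferon-stimulated response element (GAAA, any 2 bases, then GAAA, searched on both strands from 250 bases before to 50 bases after the starts in the RefSeq promoter table). For Ifitm3 this start is the outer end of the gene. For Ifitm1 it lies at 140968076, 647 bases inside the gene's outer end, and for Ifitm2 at 140955961, 3725 bases inside it. The outer starts of Ifitm1 and Ifitm2 were not searched. Capitals mark this core. The upstream stretches hold no exon of their gene in GENCODE M21. That of Ifitm1 lies in an intron of a longer Ifitm1 transcript, and that of Ifitm2 lies inside the RefSeq span of Ifitm2. They stop 49 (Ifitm1), 27 (Ifitm2) and 27 (Ifitm3) bases before the start used, where a GENCODE exon of the gene begins. Base numbers in the first exon of Ifitm3 count from its RefSeq start. All are given 5′ to 3′ on the gene's strand, from RefSeq with the build GRCm38.p6.
Ifitm1, chr7:140967826-140968027, plus strand: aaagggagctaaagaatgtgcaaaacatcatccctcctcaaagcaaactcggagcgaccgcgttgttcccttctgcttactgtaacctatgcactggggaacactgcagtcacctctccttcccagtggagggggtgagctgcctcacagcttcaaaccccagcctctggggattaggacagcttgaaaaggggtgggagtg
Ifitm2, chr7:140955988-140956211, minus strand: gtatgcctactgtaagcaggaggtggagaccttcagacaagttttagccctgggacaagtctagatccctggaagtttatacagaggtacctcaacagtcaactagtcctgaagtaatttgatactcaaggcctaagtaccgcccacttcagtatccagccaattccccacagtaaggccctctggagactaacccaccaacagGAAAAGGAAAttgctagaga
Ifitm3, chr7:141010771-141010994, minus strand: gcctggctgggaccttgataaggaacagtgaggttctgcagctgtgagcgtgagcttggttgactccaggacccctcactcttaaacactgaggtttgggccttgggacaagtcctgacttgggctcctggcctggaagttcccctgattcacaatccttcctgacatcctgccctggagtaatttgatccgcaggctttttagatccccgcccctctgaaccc
Ifitm3, bases 2 to 30 of its first annotated exon, chr7:141010715-141010743, minus strand: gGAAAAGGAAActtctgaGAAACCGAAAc

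Ifitm2 held 1 core, GAAAAGGAAA, from 46 to 37 bases before the start used. Ifitm3 held 2, GAAAAGGAAA from base 3 and GAAACCGAAA from base 20, counted from its RefSeq start. Between them, at base 14 and running into the second core, lay a match to the interferon gamma-activated motif (TTCNNNGAA), TTCTGAGAA. Ifitm1 had no match to either motif in its window of 300 bases around the inner start, and neither had the windows of Ifitm5 or Ifitm10. Ifitm6 had the TTCNNNGAA motif only. Of the 32851 promoter windows in the table of all genes, 3.44% held the interferon-stimulated core and 8.30% held TTCNNNGAA. A match is a string of letters, not a bound site, and a missing match says only that the letters are not in this window.

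Ifitm1 had the highest mean level of all listed genes, 12575 TPM, with a median of 11315 TPM. Its lowest cell had 60.9 TPM, its interquartile range was 8165 to 16221 TPM and its highest cell had 33992 TPM. It was the most abundant transcript in 46 of 76 cells (60.5%, exact Clopper-Pearson 95% interval 48.6 to 71.6%, which covers the counting of cells only) and among the 10 most abundant in 69. In the other cells the most abundant gene was Ftl1, the ferritin light chain, in 11, the ubiquitin gene Ubb in 10, the mast cell protease gene Cpa3 in 3 and Eif5a in 2, while Crip1, Eno1, Nupr1 and Wfdc17 led in 1 each. These ranks rest on how reads were assigned to genes. Of the glycolysis genes, Gapdh had a median of only 133 TPM, against 5677 TPM for Eno1. Whether read assignment lowered the values of some genes was not tested.

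Ifitm2 was the ninth gene by mean level, 4715 TPM, with a lowest value of 1314 TPM, a median of 4543 TPM and a highest value of 11721 TPM. It never ranked first in a cell, and its median rank was 10. Ifitm2 stayed above 1000 TPM in every cell. Its coefficient of variation (SD over cells divided by the mean) was 38.8%, against a median of 37.8% for the 100 most abundant genes. Ifitm1 varied more, at 53.8%, and 15 of those 100 genes varied more than it did. Without its 2 lowest cells the value for Ifitm1 was 50.6%.

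Ifitm3 ranked 195 by mean level, 808 TPM, and was far more uneven, from a lowest value of 3.84 TPM through a median of 714 TPM to a highest value of 3244 TPM. Its coefficient of variation was 87.4%, against a median of 47.4% in the 100 genes nearest to it in mean level, of which 5 varied more. The values fell into separate ranges: 10 cells had under 50 TPM, and the other 66 had 101 TPM or more. The 10 cells carried the title letters D and E (3 cells each) and A and H (2 each), and none carried B, C, F or G. Their Ifitm1 ran from 60.9 to 18807 TPM and their Ifitm2 from 1314 to 11721 TPM. A low Ifitm3 value could thus stand beside high values of the other members in the same cell. Whether these low values come from transcripts that were not captured was not tested. Ifitm3 reached 10 TPM in 70 cells.

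The remaining members were rare or not seen. Ifitm6 reached 1 TPM in 4 of 76 cells (5.26%, interval 1.45 to 12.9%), with 210 TPM in cell B6, 105 TPM in cell H9, 86.7 TPM in cell H5 and 1.09 TPM in cell H6. Ifitm5 did so in 2 cells (2.63%, interval 0.320 to 9.18%), with 88.7 TPM in cell A9 and 58.3 TPM in cell A8. Ifitm10 was listed at 0 in every cell, which allows a share of up to 3.95% of cells by 3 counts, or 4.74% by the exact interval used for the others. A value of 0 may come from transcripts that were not captured, so these genes were not detected rather than shown to be absent.

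**Figure D1:**
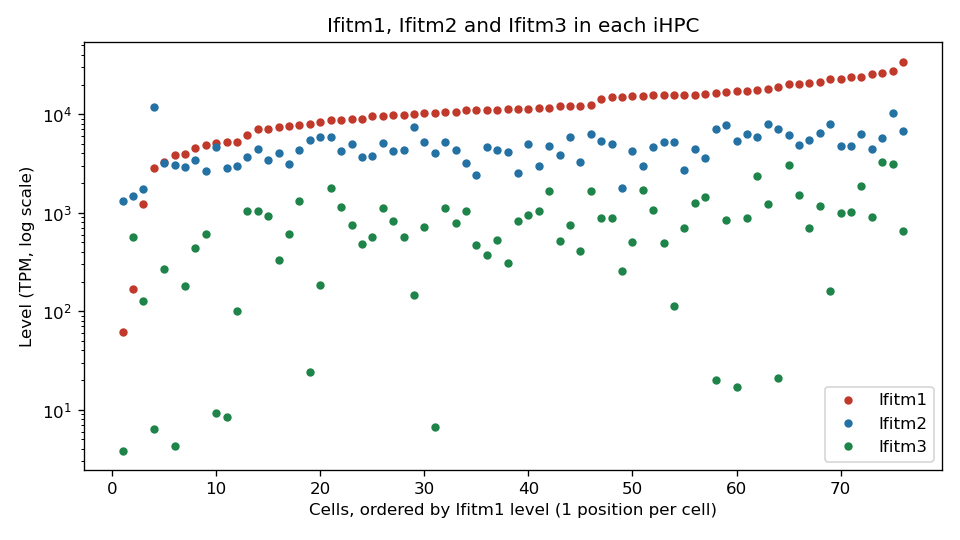
Level in TPM (log scale) of Ifitm1, Ifitm2 and Ifitm3 in each of the 76 cells, 1 position per cell, with the cells ordered by their Ifitm1 level. Ifitm1 lies above Ifitm2 in 72 cells, Ifitm2 lies above Ifitm3 in all 76, and 10 cells have under 50 TPM of Ifitm3.

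The order of the levels within a cell was nearly fixed. Ifitm1 exceeded Ifitm2 in 72 of 76 cells, Ifitm2 exceeded Ifitm3 in 76 and Ifitm1 exceeded Ifitm3 in 75. The median ratio of Ifitm1 to Ifitm2 was 2.44, with an interquartile range of 1.83 to 3.37. The median ratio of Ifitm1 to Ifitm3 was 16.5. All Ifitm genes together made up 1.62% of the TPM of the median cell, from 0.138% in the lowest cell to 4.14% in the highest.

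Ifitm1 and Ifitm2 shared their 3 lowest cells. Cell H6 had 60.9 TPM of Ifitm1, 1314 TPM of Ifitm2 and 3.84 TPM of Ifitm3, the lowest value of each. Cell A3 had 167 TPM of Ifitm1 and 1476 TPM of Ifitm2, but 562 TPM of Ifitm3. Cell B11 had 1233, 1738 and 127 TPM of Ifitm1, Ifitm2 and Ifitm3 in that order. Cells H6, A3 and B11 had 3061, 5459 and 4290 genes at 1 TPM or more, against a range of 2465 to 5992 over all cells. In the same order of cells, the blood genes Coro1a and Ptprc (CD45) had 1034, 1402 and 623 TPM and 267, 1.36 and 159 TPM. The progenitor surface genes Cd48 and Cd34 had 4.63, 4.84 and 158 TPM and 324, 117 and 2.05 TPM. Each of these cells was below the lower quartile of both genes over all cells, 325 TPM for Cd48 and 406 TPM for Cd34. Over all cells the rho with Ifitm1 was 0.20 for Cd48 and -0.11 for Cd34. The cells were picked for low Ifitm1, and a relation to these genes was not tested. At the other end, cell G3 was second highest in all 3 genes, with 27474 TPM of Ifitm1, 10329 TPM of Ifitm2 and 3117 TPM of Ifitm3. Cell E9 went against the usual order, with 2841 TPM of Ifitm1 and the highest Ifitm2 value, and it also had the fewest genes detected, 2465.

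Across the 76 cells, Ifitm1 and Ifitm2 had a Spearman correlation (rho) of 0.55 and a Pearson correlation (r) of log2(TPM + 1) of 0.62. Of the 5808 genes that were set against Ifitm1, those at 1 TPM or more in at least 20 cells, Ifitm2 had the highest rho, and Ifitm1 in turn had the highest rho with Ifitm2. By r Ifitm2 was the third gene, behind BC002163 among others, whose r was 0.64. Ifitm1 and Ifitm3 had a rho of 0.44 (r 0.44), which placed Ifitm3 seventh among the genes of Ifitm1 and Ifitm1 second among the genes of Ifitm3. Ifitm2 and Ifitm3 were less alike, with a rho of 0.24 (r 0.14), and Ifitm3 ranked 141 among the genes of Ifitm2. These correlations describe cells that share 1 sample and carry no test.

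The relation of Ifitm1 with Ifitm2 was present in both ranges of title numbers, with a rho of 0.67 in the 37 cells numbered 2 to 6 and 0.43 in the 39 cells numbered 7 to 11, where Ifitm2 was only the twenty-fourth gene. With the 2 cells farthest from the Ifitm1 median left out the rho was 0.52, and without the 3 lowest cells, H6, A3 and B11, it was 0.49. Letter and number may mark a place on a plate, which the labels do not state. Median Ifitm1 by title number ran from 5048 TPM (number 6, 7 cells) to 16238 TPM (number 10, 8 cells), and by title letter from 7471 TPM (A) to 15588 TPM (G), with overlapping ranges of single cells throughout. Median Ifitm2 by letter ran from 3056 TPM (A) to 6508 TPM (D).

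**Figure D2:**
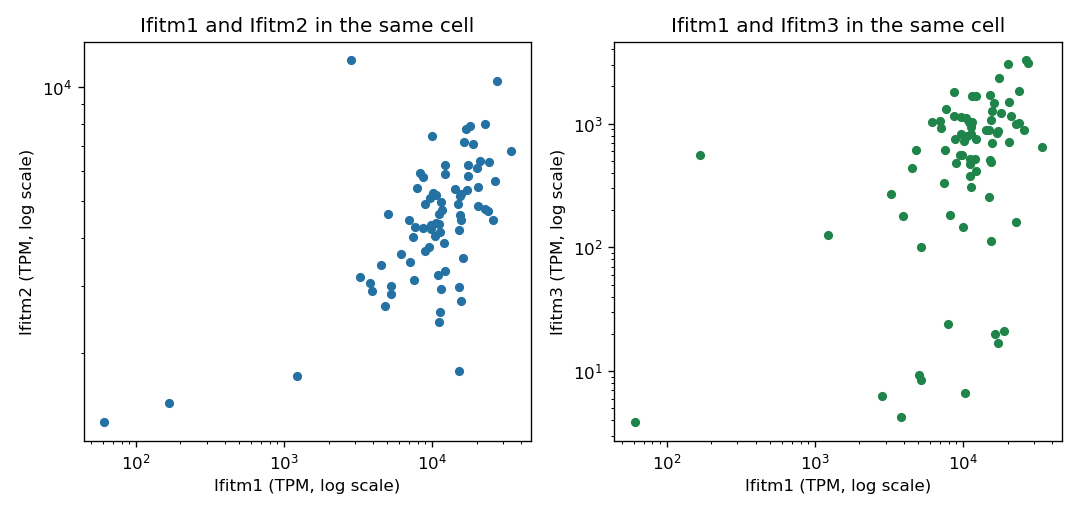
Ifitm2 (left) and Ifitm3 (right) against Ifitm1 in the same cell, in TPM on log scales, 1 point per cell for 76 cells. The cells lowest in Ifitm1 (60.9, 167 and 1233 TPM) are also the lowest in Ifitm2, and cell E9 lies apart with 2841 TPM of Ifitm1 and 11721 TPM of Ifitm2.

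The members resemble each other in sequence, so reads could in principle be exchanged between them. Of the windows of 50 bases in the annotated coding transcripts, Ifitm1 shared 15 of 1056 with Ifitm3 and none with Ifitm2. Ifitm2 shared 20 of 606 with Ifitm3. Ifitm3 shared 35 of its 629 windows with another member. Ifitm1 and Ifitm2, the pair with the highest rho, shared no window of that length. Whether reads were exchanged between members, including in the cells low in Ifitm3, was not tested. The read length is not given in the sources used here.

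Few genes varied with Ifitm1. A rho of at least 0.3 was found for 75 of the 5808 genes, which is 1.29%, and a rho of at most -0.3 for 109, which is 1.88%; the median over all genes was -0.02. After Ifitm2, the genes most like Ifitm1 were BC002163 (rho 0.46), Pam (0.46), Tmem258 (0.46), Fam69a (0.45), Dbi (0.45), Ifitm3 (0.44), Eef1b2 (0.43), Rps12 (0.41) and Pabpc1 (0.41). Pam encodes an enzyme that amidates peptides, Tmem258 a part of the oligosaccharyltransferase and Dbi the acyl-CoA-binding protein. BC002163 is a processed pseudogene in GENCODE, at the place where RefSeq has Ndufs5-ps, a copy of the respiratory chain gene Ndufs5, so its reads and those of Ndufs5 may be mixed. Eef1b2, Rps12 and Pabpc1 encode parts of the translation machinery. The lowest rho values belonged to Vgll4 (-0.50), Pde6d (-0.49), Stam2 (-0.49), Rab8a (-0.47), B3gnt2 (-0.47), Ezr (-0.46), Stk38 (-0.45), Pde4b (-0.44), Tax1bp1 (-0.43) and Arcn1 (-0.43). Rab8a, Stam2 and Arcn1 act in vesicle transport and endosomal sorting, Ezr (ezrin) links the membrane to actin and Pde4b degrades cyclic AMP. Vgll4, Stam2, Stk38 and Pde4b, and Pam among the positive genes, had medians under 1 TPM, so their ranks rest largely on zeros and low values. The other genes named here had medians above 1 TPM.

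Tmem258 and Dbi were also among the genes most like Ifitm2, with rho values of 0.49 and 0.46 beside Cox6c (0.53), a subunit of the respiratory chain, and Rpl37a (0.46). With Ifitm2, 64 genes (1.1%) had a rho of at least 0.3 and 123 (2.12%) a rho of at most -0.3. For Ifitm3 there were 46 (0.792%) and 36 (0.62%), the first set led by BC002163 (0.47), Ifitm1, Ndufs5 (0.42), Cnpy3 (0.40) and Mrpl4 (0.39).

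The 75 genes with a rho of at least 0.3 had a median transcript length of 986.5 bases, against 1676 bases for all genes tested and 1674.5 bases for the 109 at the negative end. Lengths of Ifitm1, Ifitm2 and Ifitm3 were 736, 655 and 678 bases. Of 93 ribosomal-protein genes tested, 86 had a positive rho with Ifitm1, with a median of 0.17, against 44.9% positive among all genes. Per cell, the share of TPM in ribosomal-protein genes (5.12 to 12.4%) had a rho of 0.35 with Ifitm1 and 0.29 with Ifitm2. The share in transcripts under 1000 bases, leaving out the Ifitm genes (41.4 to 53.7%), had a rho of 0.32 with Ifitm1 and 0.41 with Ifitm2. The number of genes detected had a rho of -0.20 with Ifitm1 and -0.35 with Ifitm2. With the ribosomal-protein share regressed out of the ranks, the rho of Ifitm1 with Ifitm2 was 0.50, with the short-transcript share 0.48 and with the genes detected 0.52, and Ifitm2 had the highest rho of all genes in each case. What part these measures have in the relation was not otherwise tested.

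**Figure D3:**
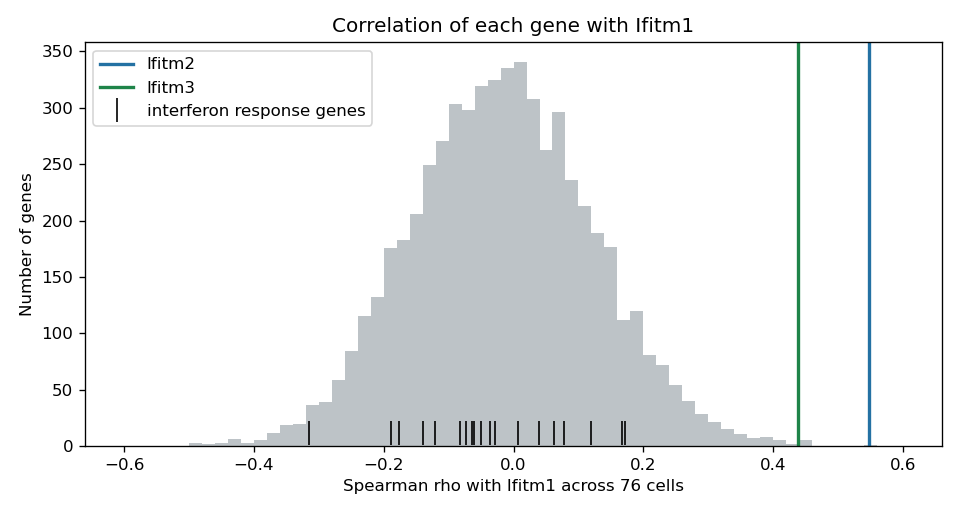
Number of genes (y axis) by their Spearman rho with Ifitm1 across the 76 cells (x axis), for 5808 genes in bars of 0.02. The coloured lines mark Ifitm2 (0.55) and Ifitm3 (0.44) at the right edge, and the black ticks mark 19 interferon response genes, which lie between -0.32 and 0.17.

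Ifitm1 and Ifitm2 stood far above the interferon response genes of the list used here, which does not hold every gene that interferon induces. Of 50 interferon response genes, 48 were listed, 19 reached 1 TPM in at least 20 cells, 26 in 1 to 19 cells and 3 in none. The 19 are 39.6% of those listed, against 38.2% of all listed genes. A median of 13 was detected per cell. The highest in this list was Psmb8, a subunit of the immunoproteasome, in 76 cells with a median of 913 TPM. The median of Ifitm1 was 12.4 times as high. Plscr1, a phospholipid scramblase, had 331 TPM in 75 cells, the immunoproteasome gene Psmb9 220 TPM in 71, Bst2 (tetherin, which holds budding viruses) 185 TPM in 63, Lgals3bp 156 TPM in 66 and Ifi35 119 TPM in 65. Rtp4 and the interferon-induced GTPase gene Igtp were found in 51 cells each, with medians of 14.6 and 9.11 TPM. Further members are named with their values already seen, so no pattern is read from them. Irgm1 and Ifi47 reached 1 TPM in 50 and 47 cells, Isg15 in 16 cells, Oasl2 in 19, Usp18 in 21, Ifit1, Ifit2, Ifit3 and Rsad2 in 1 each, and Mx1 in 0.

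Relations of the interferon response genes with Ifitm1 were weak and of mixed sign. Of the 19 genes, 7 had a positive rho with Ifitm1, with a median of -0.05, against 44.9% and -0.02 for all genes tested. None had a rho of at least 0.3, and 1, the GTPase gene Irgm1, had a rho of at most -0.3 (-0.32). With Ifitm2, 9 of the 19 were positive (median -0.02), against 37.4% of all genes. With Ifitm3, 11 were positive (median 0.01), against 54.7%. In sparse single-cell data such values are no finding in either direction.

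**Figure D4:**
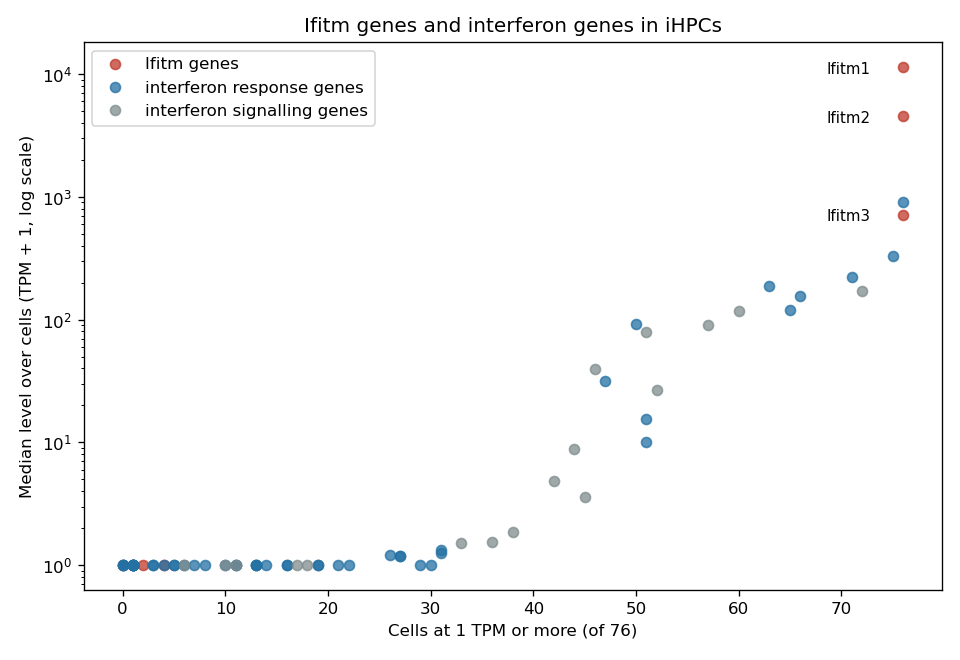
Median level over cells (TPM + 1, log scale) against the number of cells at 1 TPM or more, of 76, for the 6 listed Ifitm genes (red), 48 interferon response genes (blue) and 17 interferon signalling genes (grey), 1 point per gene. Ifitm1 and Ifitm2 lie above every interferon gene shown, Ifitm3 lies beside Psmb8, and many interferon genes lie at the bottom with few cells.

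Parts of the interferon pathway itself were detected, at levels far below those of Ifitm1 and Ifitm2. Of 17 interferon signalling genes (receptors, kinases, transcription factors and feedback inhibitors), all were listed. Of these, 12 reached 1 TPM in at least 20 cells, against 38.2% of all listed genes. The receptor genes Ifngr1 and Ifnar2 had medians of 171 TPM (72 cells) and 116 TPM (60 cells), and Ifnar1 and Ifngr2 were found in 45 and 33 cells. The feedback inhibitor Socs1 was in 57 cells (88.8 TPM), the kinase Jak1 in 52 (25.8 TPM), Il10rb in 51 (78.8 TPM), and the factors Irf3 and Irf1 in 46 and 44. Irf9, which takes part in carrying the type I interferon signal to the nucleus, was in 38 cells, Stat2 in 10 and Irf7 in 17. Of the 12 genes, 4 had a positive rho with Ifitm1 (median -0.05), against 44.9% positive and a median of -0.02 for all genes tested.

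Other antiviral factors were as widespread as Ifitm3 in a few cases. Serinc3 (median 978 TPM) and Ly6e (919 TPM), membrane proteins that act on viral entry or infectivity, were in all 76 cells. The cytidine deaminase gene Apobec3 (169 TPM) was in 71, Tmem173 (STING, 211 TPM) in 70 and the dNTP hydrolase gene Samhd1 (35.5 TPM) in 49. Of the 7 genes at 1 TPM in at least 20 cells, 1 had a positive rho with Ifitm1, and the median was -0.14, against 44.9% positive and a median of -0.02 for all genes tested; Bst2 and Trim25 are in this list and in the interferon response list. The related dispanin genes, which share the membrane domain of the family, were detected in few cells. Of 8 such genes 4 were listed: Tmem91 reached 1 TPM in 17 cells, with up to 269 TPM, Prrt1 and Prrt2 in 1 cell each and Syndig1l in 0.

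Genes for known partners of IFITM proteins were present. The tetraspanin genes Cd81, which in human cells associates with IFITM1, Cd53 and Cd9 had medians of 720, 494 and 298 TPM in 76, 76 and 74 cells, and Cd63, Cd82 and Cd37 were in 73, 64 and 58. Vapa, a membrane-contact protein reported to bind IFITM3, had 514 TPM in 75 cells, and the segregase Vcp 247 TPM in 75. Nedd4, a ubiquitin ligase, and Zdhhc20, a palmitoyltransferase, both known to modify human IFITM3, were in 53 and 52 cells. Of the 10 partner genes tested, 4 had a positive rho with Ifitm1 (median -0.05), against 44.9% positive and a median of -0.02 for all genes tested.

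The listed genes next to the cluster had far lower levels than Ifitm1 and Ifitm2, but some were above Ifitm5 and Ifitm6. Of 40 RefSeq genes within 250 kb of Ifitm1, 22 were listed, 17 of them no Ifitm gene. The highest of these were Sirt3, a mitochondrial deacetylase gene (median 263 TPM, 75 cells), the proteasome gene Psmd13 (171 TPM, 66 cells) and the ribonuclease inhibitor gene Rnh1 (164 TPM, 68 cells). Their rho values with Ifitm1 were 0.18, 0.04 and 0.07. Of the other 4 neighbours tested, Bet1l had a rho of -0.34, Sigirr of -0.20, Ric8 of 0.10 and Hras1 of 0.16. Athl1, the nearest listed gene outside the family at 19.8 kb, reached 1 TPM in 9 cells, and Nlrp6 at 38.2 kb in 0.

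Genes of blood identity had relations of mixed sign with Ifitm1, to be read against 44.9% positive and a median of -0.02 for all genes tested. All 11 listed pan-haematopoietic genes were at 1 TPM in at least 20 cells, against 38.2% of all listed genes. A median of 10 was detected per cell. The lists held 8 pluripotency and 7 stromal genes, of which only 4 each were listed. Of these, 3 pluripotency genes and 2 stromal genes were in 0 cells. Among all 15192 listed genes, 2391 had a value of 0 in every cell. Of the other listed stromal genes, Sparc was in 2 cells and Pdgfrb in 22, with up to 167 TPM. Of the pan-haematopoietic genes, 4 of 11 had a positive rho with Ifitm1 (median -0.05); the lowest was Lcp1, an actin-bundling protein gene (-0.40). For some of these genes Pearson r of log2(TPM + 1) was farther from 0 than rho: Cd52 had an r of 0.55 and a rho of 0.07, Cd48 an r of 0.52, and the lymphoid genes Tcf7 and Lck an r of -0.43 and -0.32 with a rho of -0.14 and -0.13. Among 9 stem and progenitor surface genes 4 were positive (median -0.08), with Cd48 at 0.20, Ly6a at 0.12, Cd34 at -0.11 and Kit at -0.28. Among 8 granulocyte-monocyte genes 7 were positive (median 0.11), with Prtn3 at 0.20, and among 8 lymphoid genes 1 was (median -0.12), with Gata3 at -0.31. Of the introduced factors, Runx1 had a rho of -0.04 with Ifitm1 and Hoxa10 of 0.01; Hoxa9 was in too few cells. The endothelial genes, markers of another cell type the sort could hold, summed to a median of 550 TPM (2.85 to 2159 TPM per cell), most of it from Egfl7 (430 TPM, 73 cells). Kdr and Tek were in 0 cells, Emcn in 7, Plvap in 18, Pecam1 in 24 and Eng in 37, and the 3 tested members had a median rho of -0.04.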

How the data were processed

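RNA was measured in 76 single cells of 1 group. The authors deposited 1 table of TPM per gene and cell, and each column summed to 1000000 over the listed genes. The submitters' processing notes name the build mm10, StringTie 1.3.4, HISAT2 2.1.0, SAMtools 0.1.19 and bcl2fastq. How these were run, and with which annotation, is not given in the sources used here. TPM keeps no depth, and no interval on a level was made.

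From these values, levels, ranks within cells, shares of cells at 1 TPM or more (exact Clopper-Pearson 95% intervals, counting error only), Spearman rho and Pearson r of log2(TPM + 1) were computed with Python 3.11.15, pandas 2.3.3 and scipy 1.17.1. Correlations used the genes at 1 TPM in at least 20 cells. The procedure was tested on simulated data. Gene lists, 20 in all, the members and the rules were chosen with earlier results of these data known. Named genes were all Ifitm rows, the 10 most abundant genes, those with the 10 highest and 10 lowest rho with Ifitm1, the top 5 of Ifitm2 and Ifitm3, the most widely detected members of each list, and listed neighbours; some of these are not reported here. Isg15, Oasl2, Usp18, Ifit1, Ifit2, Ifit3, Rsad2, Mx1, Irgm1, Stat2, Irf7, Irf9, Ifngr2, Nedd4, Zdhhc20, Ly6a, Kit, Prtn3, Gata3, Lcp1, Coro1a, Ptprc, Cd52, Tcf7, Lck, Ifi47, Sparc, Pdgfrb, the less detected endothelial genes and the leading genes of single cells were added after their values were seen. Gapdh was also added after its value was seen. Transcript lengths came from GENCODE M21 and covered 92.5% of the genes tested. No doublet caller was run, since each library was made from 1 sorted cell per the labels.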

Additional observations from a re-analysis of the deposited data

How the results depend on the processing

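A rho was taken to have moved when it changed by more than 0.1, a count past 1.5 times its value, a share when it left its 95% interval and a level when it changed by more than its SD over cells. By these rules, median levels of Ifitm1, Ifitm2 and Ifitm3 and the share of cells led by Ifitm1 moved under none of the settings tried. The rule for levels was wide, with SDs of 6764, 1831 and 706 TPM in that order. Over the settings, which include the mean over cells, Ifitm1 ran from 11138 to 12575 TPM. Ifitm2 ran from 4478 to 4892 TPM and Ifitm3 from 706 to 833 TPM. The share could not change on rescaling without ribosomal-protein genes, since none of them led a cell. Ifitm3 was in 92.1% of cells at 10 TPM, and Ifitm5 in 0% of cells with title numbers 2 to 6. The rho of Ifitm1 with Ifitm2 was 0.67 in title numbers 2 to 6 and 0.43 in 7 to 11, and over all settings stayed between these values; that of Ifitm2 with Ifitm3 was 0.14 with Pearson correlation of log2(TPM + 1). Genes with a rho of at least 0.3 with Ifitm1 numbered 285 and 186 in the 2 ranges of numbers, which hold fewer cells. With Pearson correlation at pseudocounts of 1 and 0.1 they numbered 131 and 140. Genes with a rho of at most -0.3 numbered 308 and 313 in the 2 ranges, 207 in the 65 cells with at least 3500 genes, 68 with Pearson correlation at a pseudocount of 0.1, 72 among genes in at least 40 cells, and 71 and 68 with the ribosomal-protein or short-transcript share regressed out; the last 2 settings, and leaving out the 3 lowest cells, were chosen after seeing the data. The cause of these changes was not tested. The median rho of the interferon response genes stayed between -0.12 and 0.04. That of the stem and progenitor surface genes became positive in title numbers 7 to 11 (0.05) and with the ribosomal-protein (0.04) or short-transcript share (0.02) regressed out, and those of the lymphoid (0.05) and of the G2 and M phase genes (0.02) in numbers 2 to 6; that of the interferon signalling genes was -0.17 among genes in at least 40 cells. Ifitm2 was among the 10 most abundant genes, so its rho without them could not be had. No paired analysis was possible because there was 1 group. Depth is unknown, and zeros limit all statements on rarely detected genes.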

Other observations

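Of 17 S phase genes tested, 14 had a positive rho with Ifitm1 (median 0.02), 2 with Ifitm2 (median -0.15) and 15 with Ifitm3 (median 0.13), against 44.9%, 37.4% and 54.7% of all genes tested. The median with Ifitm1 changed sign in title numbers 2 to 6 (-0.01) and in cells with at least 3500 genes (-0.02). Of 11 G2 and M phase genes, 3 were positive with Ifitm1 (median -0.10), 2 with Ifitm2 (median -0.08) and 10 with Ifitm3 (median 0.13). Genes of a list are not independent of each other, and the difference between members was not tested. Of 13 glycolysis genes, 1 was positive with Ifitm1 (median -0.11). Among 15 housekeeping genes 12 were (median 0.12), led by Eef1a1 (0.40), a translation factor gene, and Actg1 (0.33), a cytoplasmic actin gene.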
